A study of Mus musculus with 40 samples.

Results

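The miRNAs described here were 8 mature products of 5 hairpins that lie in short introns of protein-coding genes, of 1978 mature miRNAs counted in the CA1 region of the mouse hippocampus. They were mmu-miR-877-5p and mmu-miR-877-3p, mmu-miR-1224-5p, mmu-miR-1981-5p, mmu-miR-702-3p, and mmu-miR-3102-5p, mmu-miR-3102-3p and mmu-miR-3102-3p.2-3p, written below without the species prefix. The 8 products were chosen by name, and each was represented by its count on the precursor with the highest total. All 8 were listed, each on 1 precursor. Because totals picked the precursor and earlier results of these data were known when the miRNAs were chosen, their levels are given as a description.

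Most miRNAs are cut out of a long primary transcript by the nuclear enzyme Drosha and are then trimmed by Dicer. A mirtron bypasses Drosha, because the spliceosome releases a short intron which, once debranched, folds into the hairpin that Dicer cuts. The mature strand loaded into an Argonaute protein recognizes its targets mainly through the seed, the bases near its 5′ end.

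Small RNA libraries were prepared from 40 mice, 1 library per mouse. CamKIIδC transgenic (TG) mice overexpress the δC form of calcium/calmodulin-dependent protein kinase II and serve as a model of heart failure. The promoter of the transgene is not named in the sources used here. Their controls were wild-type littermates, both on a C57Bl/6J background and of both sexes. At the age of 3 months there were 9 TG mice and 5 controls, and at the age of 6 months 11 TG mice and 15 controls. The labels of wild-type control mice 1 and 2 at 3 months conflict, with wild-type in the title and TG in the genotype field. Groups followed the title, and log2FC whose sign depends on these mice are listed with the alternatives. Because RNA came from dissected tissue, fewer cells of a type and less RNA per cell cannot be told apart.

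Total counts per library ranged from 2656368 to 36547011, with lower group medians at 6 months. Levels are given as CPM, read counts relative to library size (per 1000000), scaled jointly over the 40 libraries with the TMM factors of edgeR, and a floor of 3 counts corresponded to between 0.0956 and 2.32 CPM. It covers counting error alone, because amplified reads carry no molecular identifier and 1 molecule can give several. The tissue label was checked with miRNAs of known cell types. The neuronal miR-9-5p and miR-128-3p were at medians of 75931 and 154451 CPM, and the neuronal miR-124-3p and miR-138-5p were lower, at 2956 and 394 CPM. The cardiac miR-208a-3p was at a median of 0. Other heart and muscle miRNAs were counted, with miR-1a-3p at a median of 578 CPM (221 to 1674 CPM), miR-499-5p at 9.49 CPM and miR-133a-3p at 8.36 CPM. Markers of vessels were also present, with miR-126a-3p at 7994 CPM, miR-143-3p at 5917 CPM and miR-145a-5p at 80.5 CPM. Those of choroid plexus were at 703 CPM (miR-204-5p), 34.9 CPM (miR-211-5p) and 0.595 CPM (miR-449a-5p). The part of vessels and choroid plexus in the results was not tested. The TMM factors ranged from 0.621 to 1.37. The first principal component of the miRNA profiles held 49.8% of the variance.

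The mature sequences of the 8 products, taken from RefSeq on GRCm38.p6, are shown 5′ to 3′ with the seed, bases 2 to 8, in capitals. The sequence of miR-702-5p, the other arm of the miR-702 hairpin, is added because its seed recurs among them.
miR-877-5p: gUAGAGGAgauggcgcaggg
miR-877-3p: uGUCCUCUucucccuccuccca
miR-1224-5p: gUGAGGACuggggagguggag
miR-1981-5p: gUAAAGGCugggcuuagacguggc
miR-702-3p: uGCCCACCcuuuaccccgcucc
miR-702-5p: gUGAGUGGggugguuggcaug
miR-3102-5p: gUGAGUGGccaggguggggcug
miR-3102-3p: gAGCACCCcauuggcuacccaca
miR-3102-3p.2-3p: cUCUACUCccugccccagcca

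All 4 of the 5p products among the 8 began with GU, the bases that open nearly every intron. Of 697 5p miRNAs of the count table with a RefSeq sequence, 37 (5.31%) did so. GC content was 58.3% to 72.7% in the 8 products, against a median of 52.2% over the 1679 miRNAs with a sequence, which were 84.9% of those counted. Lengths were 20 to 24 bases. The seed UGAGUGG was shared by miR-3102-5p and miR-702-5p. Each of the other 7 seeds of the 8 products occurred in 1 mature miRNA of the matched set, so that neither arm of a hairpin had the seed of the other arm and no seed family ran across the other hairpins.

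The hairpins are shown for the 4 loci with a RefSeq hairpin entry, because their ends can be read against the ends of the intron. The mature arms are in capitals.
Mir877: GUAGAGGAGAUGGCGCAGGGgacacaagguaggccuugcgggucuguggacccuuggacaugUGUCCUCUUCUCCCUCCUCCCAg
Mir1224: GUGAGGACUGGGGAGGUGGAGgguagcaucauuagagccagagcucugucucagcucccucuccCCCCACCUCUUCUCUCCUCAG
Mir1981: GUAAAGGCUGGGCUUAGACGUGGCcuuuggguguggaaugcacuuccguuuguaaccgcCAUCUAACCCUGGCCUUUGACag
Mir702: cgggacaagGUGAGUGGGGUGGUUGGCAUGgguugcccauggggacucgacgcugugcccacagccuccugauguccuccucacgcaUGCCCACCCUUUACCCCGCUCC

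Mir877 (ENSMUSG00000077931) filled an 85-base intron of Abcf1, which encodes a protein of translation initiation, at chr17:35960730-35960814 on the minus strand of GRCm38. Mir1224 (ENSMUSG00000080669) filled an 85-base intron of Vwa5b2 at chr16:20604452-20604536 on the plus strand. Mir1981 (ENSMUSG00000088559) filled an 82-base intron of Marc2, a mitochondrial reductase gene, at chr1:184822407-184822488 on the minus strand. Mir3102 (ENSMUSG00000093296) filled a 104-base intron of Arhgef17 at chr7:100882306-100882409 on the minus strand. The first 3 of these hairpins began with GU and ended with AG, the splice site dinucleotides. Mir702 (ENSMUSG00000076240, chr5:136991433-136991541, plus strand) did not share this layout as annotated. It began 9 bases before its 102-base intron of Plod3, a collagen lysyl hydroxylase gene, and ended 2 bases before the end of that intron, although its 5p arm began at the first base of the intron. In the GENCODE annotation, 23 of 2201 miRNA genes (1.04%) had both ends within 5 bases of the ends of an intron, and 4 of the 5 hairpins were among them.

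**Figure D1:**
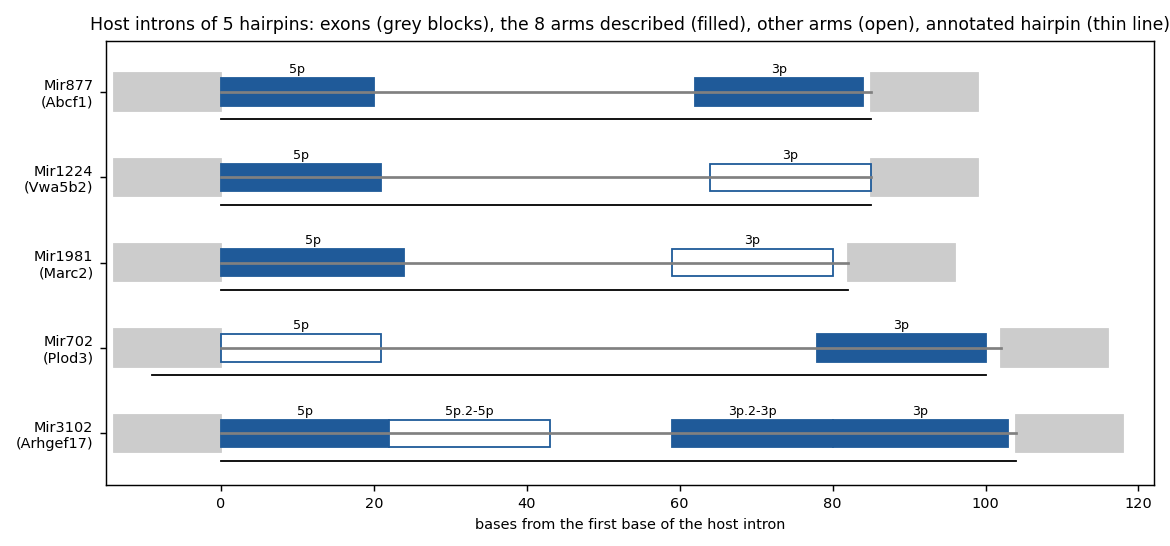
Position of each mature arm in its host intron, in bases from the first base of the intron. Filled boxes are the 8 products, open boxes the other arms of the same hairpins, grey blocks the flanking exons (not to scale in length), and the thin line under each intron the annotated hairpin. The filled 5p products and miR-702-5p start at base 0 of their introns. Mir3102 carries 4 products, of which miR-3102-5p.2-5p starts 22 bases into the intron and miR-3102-3p ends 1 base before its end.

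The 8 products spanned a wide range of levels. By median over the 40 libraries, the order was miR-1981-5p (488 CPM), miR-1224-5p (36.2 CPM), miR-877-3p (17.3 CPM), miR-3102-3p (14.3 CPM), miR-877-5p (7.58 CPM), miR-3102-3p.2-3p (3.995 CPM), miR-702-3p (0.839 CPM) and miR-3102-5p (0 CPM). Of all miRNAs counted, 103 had a higher median than miR-1981-5p and 1002 had a higher median than miR-3102-5p. miR-1981-5p exceeded miR-1224-5p in 40 of 40 libraries, and miR-1224-5p exceeded miR-877-3p in 36. The neighbours miR-877-3p and miR-3102-3p were not separated by their spread, with the first higher in 29 of 40 libraries. miR-3102-3p exceeded miR-877-5p in 38 libraries, and miR-877-5p exceeded miR-3102-3p.2-3p in 40. This order is one of read counts.

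**Figure D2:**
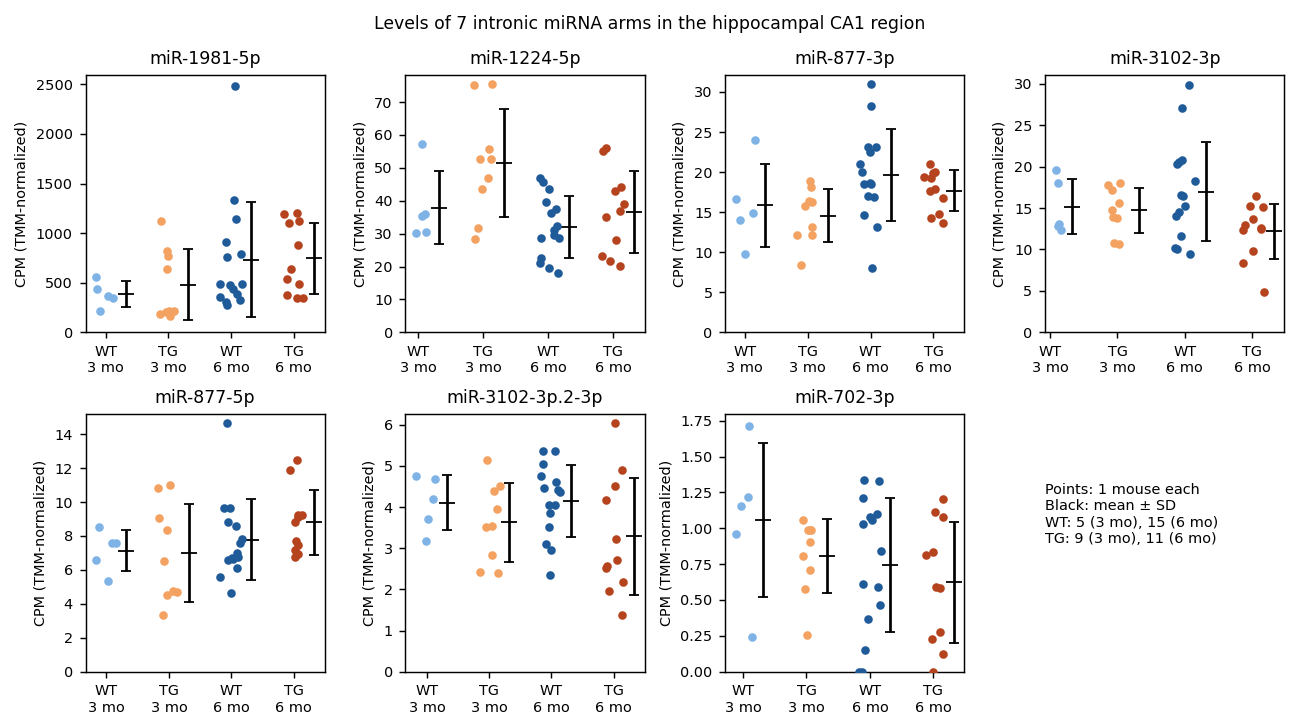
TMM-normalized CPM of 7 products in each mouse, by genotype (WT, wild-type control; TG, CamKIIδC TG) and age (mo, months), with mean ± SD in black beside the points. Each vertical axis starts at 0 and has its own scale. The groups overlap for each of the 7 products, and miR-1981-5p is the most spread, from 166 to 2480.3 CPM.

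The most abundant, miR-1981-5p, takes up the first 24 bases of the Marc2 intron. In 3-month-old wild-type control mice 1 to 5 it was at 563, 219.5, 345, 367 and 442 CPM, a mean of 387 ± 127 CPM (SD, n = 5). The 3-month-old TG mice ranged from 166 to 1122 CPM with a median of 217 and a mean of 481 ± 359.9 CPM (SD, n = 9). These TG mice fell into 5 low and 4 high values around the wild-type control mice. At 6 months, wild-type control mice ranged from 281 to 2480.3 CPM with a median of 484 and a mean of 732 ± 579 CPM (SD, n = 15). Those of TG mice lay between 343 and 1199 CPM, with a median of 643 and a mean of 747 ± 355 CPM (SD, n = 11). The 4 groups overlapped.

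Between its lowest and highest library, miR-1981-5p differed 15.0-fold, and its SD within groups was 0.88 on the log2 scale. This was larger than the SD of 90.3% of the 361 miRNAs whose mean reached 10 CPM, whose median SD was 0.47. The values of miR-1224-5p, miR-877-3p and miR-3102-3p, the other products above 10 CPM, were 0.47, 0.39 and 0.44.

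The level of miR-1981-5p ran with the TMM factor of the library. The 16 libraries with a factor below 1 held between 639.8 and 2480.3 CPM, and the 24 with a factor of at least 1 held between 166 and 563 CPM. In 3-month-old TG mice, the 4 libraries below 1 were at 639.8 to 1122 CPM and the 5 others at 166 to 217 CPM. At 6 months, the 6 wild-type control libraries below 1 were at 758 to 2480.3 CPM against 281 to 491 CPM in the other 9. The corresponding TG libraries were at 643 to 1199 CPM (6 mice) and 343 to 535 CPM (5 mice). All 5 libraries of 3-month-old wild-type control mice had a factor of at least 1. Other values ran with the factor too. The first principal component was at -32.1 in the library with the lowest factor and at 20.9 in that with the highest. In the opposite direction, miR-484 was at 53.4 to 141 CPM below 1 and at 131 to 376 CPM in the other libraries. The share of all miRNAs split in this way was not computed. The factor itself enters each CPM. The highest factor was 2.21 times the lowest, which covers its arithmetic part alone, and the span of miR-1981-5p was 15.0-fold. The factors were computed from the same counts, the labels give no batch, and the part of the factor in the comparisons was not tested beyond the values within each class given below.

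**Figure D3:**
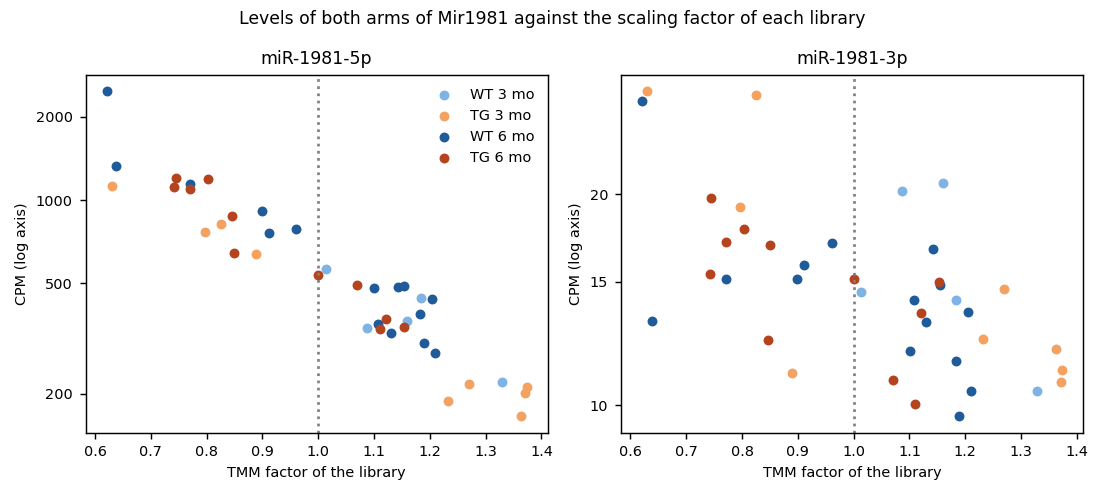
Level of miR-1981-5p and of its other arm, miR-1981-3p, in CPM on a log axis against the TMM factor of each of the 40 libraries, coloured by group. Left of the dotted line at 1, miR-1981-5p is at or above 639.8 CPM in each of 16 libraries, and right of it at or below 563 CPM, whereas the values of miR-1981-3p overlap across the line.

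The other arm of the same hairpin, miR-1981-3p, varied less. Its group means were 16.02 ± 4.36 CPM (SD, n = 5) and 16.4 ± 7.02 CPM (SD, n = 9) in controls and TG mice at 3 months, and 14.6 ± 4.07 CPM (SD, n = 15) and 14.9 ± 2.99 CPM (SD, n = 11) at 6 months. The ratio of counts of the 5p to the 3p arm therefore ranged from 13.8 to 101 across libraries, with the 5p arm higher in 40 of 40. Its median was 20.95 and 18.9 in controls and TG mice at 3 months, and 33.7 and 45.2 at 6 months. A ratio within a library does not depend on the TMM factor in its arithmetic, but the level of the 5p arm ran with that factor.

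Each of the 3 miRNAs whose levels were most like that of miR-1981-5p followed it closely. Over the 40 libraries, with group means subtracted, Pearson's r was 0.970 for miR-673-3p, 0.959 for miR-12184-3p and 0.956 for miR-1964-3p, of 357 miRNAs compared. For miR-1224-5p the most alike were miR-135a-2-3p (r = 0.802), miR-200a-5p (r = 0.773) and let-7i-5p (r = 0.754). For miR-877-3p they were miR-935 (r = 0.751), miR-132-5p (r = 0.595) and miR-540-3p (r = 0.5497). The points share their library and its scaling, so that these values are a description of the libraries.

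miR-1224-5p is the 5p arm of the Vwa5b2 hairpin. In 3-month-old wild-type control mice 1 to 5 it was at 30.5, 35.4, 57.2, 36.1 and 30.3 CPM, a mean of 37.9 ± 11.1 CPM (SD, n = 5). Mouse 3 stood apart from the other 4. The 3-month-old TG mice ranged from 28.4 to 75.5 CPM with a median of 52.7 and a mean of 51.4 ± 16.5 CPM (SD, n = 9), the highest mean of the 4 groups. At 6 months, wild-type control mice ranged from 18.1 to 47.0 CPM with a median of 31.04 and a mean of 32.1 ± 9.42 CPM (SD, n = 15), and TG mice from 20.3 to 56.0 CPM with a median of 36.8 and a mean of 36.6 ± 12.5 CPM (SD, n = 11). The 3p arm, miR-1224-3p, ends at the last base of the intron and was scarce, with 275 counts in all libraries against 18991 of the 5p arm, and the 5p arm was higher in 40 of 40 libraries.

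The 2 arms of the Abcf1 hairpin were both counted in every library. In the 5 controls at 3 months, miR-877-3p was at 16.7, 14.0, 9.75, 14.8 and 23.98 CPM and miR-877-5p at 6.60, 5.37, 8.53, 7.58 and 7.57 CPM. The 3p arm, which ends 1 base before the end of the intron, had means of 15.9 ± 5.20 CPM (SD, n = 5) and 14.6 ± 3.36 CPM (SD, n = 9) in controls and TG mice at 3 months. At 6 months these were 19.6 ± 5.72 CPM (SD, n = 15) and 17.7 ± 2.54 CPM (SD, n = 11). The group ranges overlapped, from 8.43 to 18.9 CPM in 3-month-old TG mice to 7.99 to 31.03 CPM in 6-month-old wild-type control mice. The 5p arm had means of 7.13 ± 1.197, 7.01 ± 2.90, 7.79 ± 2.37 and 8.80 ± 1.91 CPM in the same order of groups (SD, n = 5, 9, 15 and 11). It ran with the TMM factor in TG mice, where libraries below 1 were at 8.35 to 11.0 CPM against 3.35 to 6.52 CPM in the others at 3 months, and at 8.85 to 12.5 CPM against 6.77 to 7.68 CPM at 6 months. In 6-month-old wild-type control mice, the corresponding ranges overlapped, 4.65 to 14.6 CPM and 5.603 to 9.65 CPM.

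The ratio of miR-877-3p to miR-877-5p counts had a median of 2.47 and ranged from 0.778 to 4.00. The 3p arm was higher in 38 of 40 libraries, with 1 exception each among 3-month-old TG and 6-month-old wild-type control mice. Group medians were 2.53 and 2.59 in controls and TG mice at 3 months, and 2.98 and 1.92 at 6 months, with overlapping ranges. Over the 40 libraries, r between the log2 CPM of the arms was 0.0052 after group means were subtracted, at counts as low as 6 for the 5p arm.

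**Figure D4:**
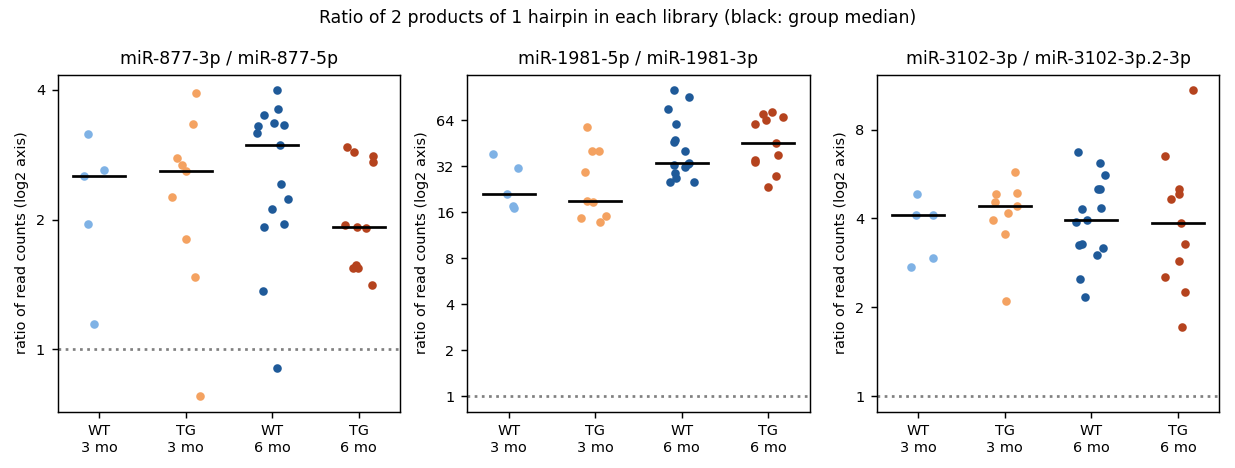
Ratio of the counts of 2 products of the same hairpin in each library, on a log2 axis with the ratio itself as tick labels, by group (WT, wild-type control; TG, CamKIIδC TG; mo, months). Black lines are group medians and the dotted line marks equal counts. miR-877-3p lies above miR-877-5p in 38 libraries, and miR-1981-5p above miR-1981-3p and miR-3102-3p above miR-3102-3p.2-3p in 40.

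The Arhgef17 intron holds 4 products side by side, of which the outer 5p and the outer 3p product lie at the ends of the intron and the inner pair of products lie between them. The outer 3p product, miR-3102-3p, was at 12.4, 13.1, 19.6, 17.97 and 12.9 CPM in controls 1 to 5 at 3 months, a mean of 15.2 ± 3.34 CPM (SD, n = 5). The TG mice of that age had a mean of 14.7 ± 2.74 CPM (SD, n = 9), and a lowest, median and highest of 10.6, 14.8 and 18.02 CPM. At 6 months, wild-type control mice had a mean of 16.99 ± 6.01 CPM (SD, n = 15) with 9.44, 16.5 and 29.9 CPM, and TG mice a mean of 12.2 ± 3.35 CPM (SD, n = 11) with 4.88, 12.6 and 16.5 CPM. At 6 months, 11 of 11 TG mice were below the mean of the controls, while the ranges overlapped.

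The inner 3p product, miR-3102-3p.2-3p, was at 4.203, 3.19, 4.75, 3.71 and 4.69 CPM in the 3-month-old wild-type control mice, and its group means were 4.11 ± 0.664, 3.64 ± 0.960, 4.15 ± 0.878 and 3.29 ± 1.43 CPM in wild-type control and TG mice at 3 months and then at 6 months (SD, n = 5, 9, 15 and 11). It was below miR-3102-3p in 40 of 40 libraries, with a median ratio of 4.12 and a range from 1.71 to 10.9. It was close in number to its own partner across the loop, miR-3102-5p.2-5p, with 1928 and 2013 counts in all libraries, the partner higher in 18 libraries and lower in 21. By contrast, the outer pair was uneven, with 8009 counts of miR-3102-3p and 26 of miR-3102-5p.

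miR-3102-5p was at 0 in 24 of 40 libraries and reached at most 4 counts in a library. It passed the low-count filter in 0 of the 5 comparisons, so no fold change is given. miR-702-3p, from the Plod3 intron, was at 0.240, 0.960, 1.15, 1.22 and 1.71 CPM in the 3-month-old wild-type control mice. Its highest value was 1.06 CPM in TG mice at 3 months, 1.34 CPM in 6-month-old controls and 1.21 CPM in TG mice of that age. It was at 0 in 3 libraries, all at 6 months, and totalled 443 counts against 46 of miR-702-5p, the arm that starts at the first base of the intron.

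The question of the study was how hippocampal miRNAs differ between 3 and 6 months of age and between the genotypes. In CamKIIδC TG mice, 9 at 3 months were compared with 11 at 6 months over 629 miRNAs, of which 15.7% were called. A call needed an absolute log2FC above 0.26 and an adjusted p below 0.05 in the quasi-likelihood test of edgeR, adjusted after Benjamini and Hochberg. Of the 7 products that passed the filter, 0 were called, and 1 had an unadjusted p under 0.05, against 32.4% of all miRNAs tested. The log2FC, 6 over 3 months, was above 0 for 3 and below 0 for 4, with a median of -0.15 beside -0.09 over all miRNAs tested. For miR-1224-5p it was -0.48 (SE, the standard error, 0.22, unadjusted p = 0.0408, adjusted p = 0.136 by edgeR), and 9 of 11 mice at 6 months lay below the 3-month mean. miR-1981-5p had a log2FC of 0.66 (SE 0.38, adjusted p = 0.231 by edgeR), with 8 of 11 mice above the 3-month mean. The arms of the Abcf1 hairpin had log2FC of 0.30 for miR-877-3p and 0.34 for miR-877-5p (SEs 0.15 and 0.22, adjusted p = 0.176 and 0.281 by edgeR), each with 9 of 11 mice above. Those of miR-3102-3p, miR-3102-3p.2-3p and miR-702-3p were -0.25, -0.15 and -0.30, with adjusted p of 0.337, 0.679 and 0.541 (by edgeR).

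Within the TG libraries with a TMM factor of at least 1 (5 mice at each age), a comparison added after the data were seen, 3 of 7 products were called by edgeR. They were miR-1981-5p with a log2FC of 1.095 (adjusted p = 2.33e-05 by edgeR), miR-877-5p with 0.59 (adjusted p = 0.0190 by edgeR) and miR-877-3p with 0.41 (adjusted p = 0.0453 by edgeR). Calls were common in this class, with 292 miRNAs called in all against 99 in the main fit. The filter was run anew in each class, and how many miRNAs passed it was not counted, so no share called is given. In the class of at least 1, the levels of miR-1981-5p did not overlap, 166 to 217 CPM at 3 months and 343 to 535 CPM at 6 months. The TMM factors within this class did not overlap either, 1.23 to 1.37 at 3 months and 1.00 to 1.15 at 6 months. Age and factor therefore cannot be told apart in it, and the share of all miRNAs without overlap was not computed. Within the libraries below 1 (4 and 6 mice), 0 of 6 products and 43 miRNAs were called, and miR-1981-5p had a log2FC of 0.37 (adjusted p = 0.214 by edgeR). The class of libraries was chosen in view of miR-1981-5p, so that these calls are no independent test of it. DESeq2 with 1 factor of unwanted variation estimated from residuals (RUVr) also called 3 products, miR-1981-5p with a log2FC of 0.78, miR-1224-5p with -0.54 and miR-877-5p with 0.35. They were among 302 miRNAs called of the 629 that passed the filter. With so many miRNAs called, these calls are no result particular to the products. With 1 factor estimated from the spike-in oligos in edgeR, by contrast, miR-1981-5p had a log2FC of 0.27 (adjusted p = 0.0709 by edgeR) and miR-877-5p 0.14 (adjusted p = 0.428 by edgeR), and miR-1224-5p was the product called, with -0.73 (adjusted p = 0.000788 by edgeR). Of the same 629 miRNAs, 220 were called with that factor. The study's methods name DESeq2 with RUVSeq, without the kind of factor. The edgeR test without a factor, scaled as for the miRNAs, called 11 of 41 spike-in oligos between these groups. Median library totals were 29499287 counts at 3 months and 13894826 at 6 months. The part of depth and of the spike-in differences in these results was not tested.

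For the ages in wild-type control mice (5 at 3 months, 15 at 6 months), 0 of 7 products were called by edgeR, against 0.152% of 660 miRNAs tested, and 1 had an unadjusted p under 0.05, against 15.5% of all. This was miR-1981-5p, with a log2FC of 0.90 (SE 0.43, unadjusted p = 0.0465, adjusted p = 0.321 by edgeR) and 11 of 15 mice above the 3-month mean. In the libraries with a TMM factor of at least 1, which left 9 mice at 6 months, its log2FC was 0.01 (adjusted p = 0.978 by edgeR), and the class below 1 held no 3-month-old mouse. With the RUVr factor in DESeq2 it was called, with a log2FC of 0.69, among 205 miRNAs called of the 660 that passed the filter. With so many called, this is no result particular to miR-1981-5p. With the spike-in factor in edgeR its log2FC was 0.14 (adjusted p = 0.769 by edgeR). The other 6 products had log2FC between -0.38 and 0.31, and the median of the 7 was 0.14 beside -0.02 over all miRNAs tested. miR-1224-5p had a log2FC of -0.25 (SE 0.22, adjusted p = 0.600 by edgeR), and miR-877-3p had 0.31 (SE 0.24, adjusted p = 0.5598 by edgeR).

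At 3 months, 0 of 7 products and 0% of 695 miRNAs tested were called between TG and wild-type control mice by edgeR. An unadjusted p under 0.05 was found for 0 of the 7 and for 1.01% of all, and DESeq2 also called 0 miRNAs. The log2FC, TG over wild-type, ranged from -0.39 for miR-702-3p to 0.38 for miR-1224-5p (SEs 0.36 and 0.25), with adjusted p = 0.998 for each of the 7 (by edgeR). For miR-1981-5p it was 0.21 (SE 0.44, adjusted p = 0.998 by edgeR). Among libraries with a factor of at least 1, where all 5 TG mice (166 to 217 CPM) lay below all 5 wild-type control mice (219.5 to 563 CPM), it was -1.01 (adjusted p = 0.0943 by edgeR). The factors there were 1.23 to 1.37 in TG mice and 1.01 to 1.33 in controls. The lowest control, mouse 2, had the highest factor of the controls. The class was chosen in view of miR-1981-5p, and the share of all miRNAs so separated was not computed.

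At 6 months, 0 of 6 products were called between 11 TG and 15 wild-type control mice, as were 0% of 612 miRNAs tested, by edgeR, and DESeq2 called 0. miR-702-3p did not pass the filter here. With an unadjusted p of 0.0130, miR-3102-3p was 1 of 3 miRNAs (0.49%) under 0.05. Its log2FC was -0.49 (SE 0.19, adjusted p = 0.992 by edgeR). The inner product of the same hairpin, miR-3102-3p.2-3p, had a log2FC of -0.38 (SE 0.19, unadjusted p = 0.0550, adjusted p = 0.992 by edgeR), with 7 of 11 TG mice below the wild-type control mean. miR-1981-5p had a log2FC of 0.00027 (SE 0.33, adjusted p = 0.999 by edgeR), and the other 3 products had log2FC between -0.17 and 0.17.

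The difference between the genotypes in their change with age was tested as the interaction over the 40 mice. By edgeR, 0 of 7 products and 0% of 699 miRNAs were called, and 0 products and 2% of miRNAs had an unadjusted p under 0.05. The coefficients ranged from -0.43 for miR-3102-3p to 0.18 for miR-877-5p, with adjusted p from 0.986 to 0.991 (by edgeR) and a median of -0.19 beside -0.10 over all miRNAs. The comparisons of ages and of genotypes share their groups, so that their values are not independent of each other.

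**Figure D5:**
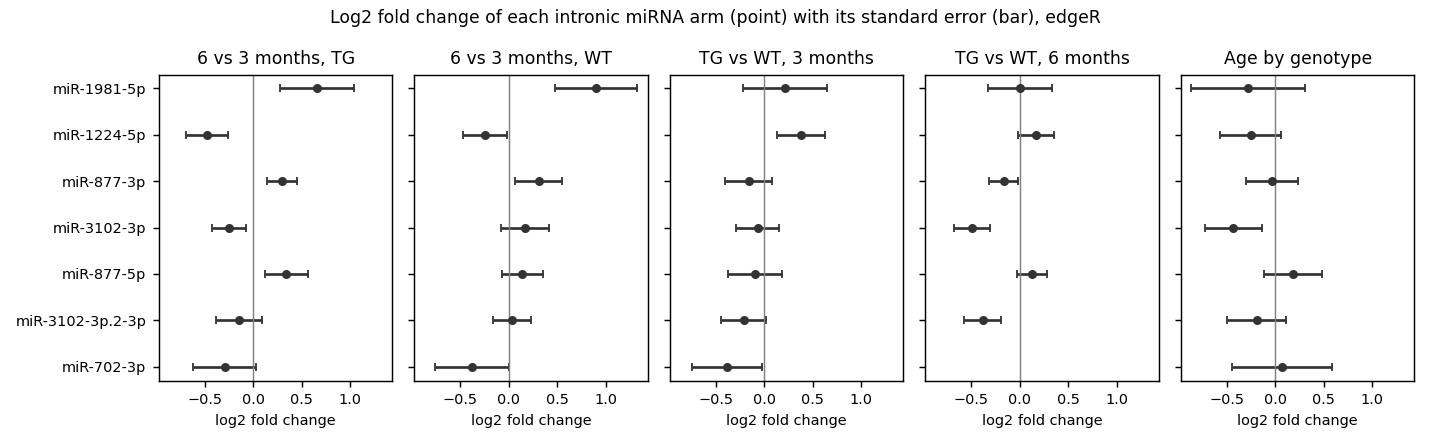
Log2 fold change of 7 products in each comparison, from edgeR, with bars for 1 standard error and a grey line at 0. The panels give 6 over 3 months in CamKIIδC TG (TG) and wild-type control (WT) mice, TG over WT at 3 and at 6 months, and the age-by-genotype interaction; miR-702-3p was not tested at 6 months. The points furthest from 0 are those of miR-1981-5p between the ages, 0.66 in TG mice and 0.90 in controls, which also have wide bars.

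Among other miRNAs that are made without Drosha, 8 arms were listed, and 7 of these were tested in each comparison. They come from capped short hairpins (miR-320-3p, miR-320-5p and miR-484), from small nucleolar RNAs (both arms of miR-1839 and of miR-664) and from a transfer RNA (miR-1983), and miR-320-5p was too scarce to be tested. Between the ages in TG mice, 1 of 7 was called, beside 15.7% of all miRNAs. miR-1983 rose from 94.5 ± 19.7 CPM at 3 months (SD, n = 9) to 133 ± 20.5 CPM at 6 months (SD, n = 11), a log2FC of 0.51 (SE 0.14, adjusted p = 0.0167 by edgeR), with 11 of 11 mice above the 3-month mean. In the 4 other comparisons, 0 of 7 were called by edgeR. miR-451a, which is cut by Argonaute instead of Dicer and is abundant in red blood cells, also rose in TG mice, with a log2FC of 0.68 (SE 0.16, adjusted p = 0.0067 by edgeR). In controls, its log2FC was 0.63 (SE 0.18, unadjusted p = 0.00151, adjusted p = 0.179 by edgeR), with 15 of 15 mice above the 3-month mean, and the interaction was 0.022 (adjusted p = 0.991 by edgeR). For miR-1983, the log2FC in controls was 0.34 (SE 0.19, adjusted p = 0.381 by edgeR) and the interaction 0.15 (adjusted p = 0.986 by edgeR). Of the other arms of the 5 hairpins, between 2 and 3 were tested in each comparison and 0 were called by edgeR.

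The 19 further hairpins that fill an intron in the GENCODE annotation, a list drawn after the data were seen, were scarcer than the leading products. In the count table, 17 of them had 34 mature arms with 13073 counts in all, fewer than miR-1224-5p alone. The highest were miR-6944-3p at a median of 9.88 CPM (4.57 to 16.2 CPM) and miR-7080-3p at 7.95 CPM (2.63 to 18.6 CPM). Of the 34 arms, 5 were tested in each comparison and 0 were called by edgeR, and 4 had no read in any library.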

How the data were processed

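CA1 tissue of 40 mice was processed to small RNA libraries. According to the submitters' processing notes and the study's methods, the authors converted base calls with bcl2fastq (version 2.20.2), checked reads with FastQC (version 0.11.5), trimmed adapters with cutadapt, for which the notes give version 2.8 and the methods another, and counted reads on miRNA precursors with mirdeep2. The authors deposited raw read counts, without normalization, for every mature miRNA on each of its precursors. The deposited normalized values were not used here. The 52 entries of spike-in oligos were left out of library sizes and tests of miRNAs, and took 0.0851% to 0.252% of the counts.

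From the counts, each mature miRNA was represented by its precursor with the highest total. Only the groups compared entered a fit, which ran over all miRNAs in edgeR 4.0.16 under R 4.3.3. Steps were filterByExpr (minimum count 10, minimum total 15), TMM scaling, the robust quasi-likelihood F test and adjustment after Benjamini and Hochberg over all miRNAs tested. CPM shown for single libraries were scaled jointly over the 699 miRNAs kept in the 40 libraries. Correlations used log2 CPM with a prior count of 2. The labels do not state whether litters or cages differed, and neither was modelled. The p-values therefore treat the mice as independent and measure the spread between these mice. Within each group no library was a copy of another, and libraries of different groups were not compared in this way.

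The miRNAs described and the lists were chosen with earlier results of these data known. The miRNAs named are the 8 products, their other arms, other miRNAs made without Drosha, miR-451a and, for the 3 most abundant products, the 3 most correlated miRNAs whose mean reached 10 CPM. Alternatives were RLE size factors, no low-count filter, DESeq2 (version 1.42.0) without and with 1 RUVr factor, the replicate number as a block, 1 factor from the spike-in oligos in edgeR, counts summed over precursors, a joint fit, and mice left out or, for the 2 with conflicting labels, counted as TG. RUV factors were computed from their published definitions. The 2 classes of TMM factor were added after the data were seen. Sequences are from RefSeq (GRCm38.p6), and hairpins and introns from GENCODE on GRCm38. The mRNA sequencing of the study was not analysed here.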

Additional observations from a re-analysis of the deposited data

Results flagged for a closer look

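One value stood apart from its group. In 3-month-old wild-type control mouse 3, miR-1224-5p was at 57.2 CPM, and the nearest of the other 4 mice was at 36.1 CPM. The gap was 0.785 of the range of the group, above Dixon's 95% critical value of 0.710 for 5 samples. Of 14 groups of 5 or 9 mice examined, 1 met this criterion, and chance gives about 1 in 20.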

How the results depend on the processing

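With the main test 0 products were called in each of the 5 comparisons, and this held with RLE size factors, without the filter, with DESeq2 without a factor, with summed precursors and in the joint fit where it was run. Between the ages in TG mice, the count was 3 with the RUVr factor in DESeq2, 3 in libraries with a TMM factor of at least 1, 1 with the replicate block and 1 with the spike-in factor (miR-1224-5p, log2FC -0.73). In wild-type control mice it was 1 with the RUVr factor and 1 with the block. When single mice were left out, it ranged from 0 to 0 in each comparison except that of the genotypes at 6 months, where groups exceed 10 mice and this was not run.

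The labels tie no same-numbered mice to each other. Across miRNAs, 7 of 9 pairs in TG mice, 2 of 5 in controls, 2 of 5 at 3 months and 9 of 11 at 6 months correlated above 0.1 (mean r 0.23, 0.035, 0.0068 and 0.26), a hint of shared structure in TG mice and at 6 months, but not in every pair, so that the numbers were not taken to pair the mice. In TG mice of both ages and controls at 6 months, numbers 1 to 3 had a TMM factor below 1 and numbers 6 and 7 one above 1. The block is therefore not separate from the factor, whose part in it was not tested. Controls numbered above 5 were present at 6 months alone, so the block fit of their ages rested on numbers 1 to 5. Among these, the factors were 0.621 to 0.960 at 6 months and 1.01 to 1.33 at 3 months. Age and factor therefore cannot be told apart in that fit. With the replicate block, miR-1981-5p had log2FC of 0.92 in TG mice and 1.71 in controls (adjusted p = 0.0407 and 1.17e-05, edgeR), miR-1224-5p had 0.073 and miR-3102-3p had -0.14 in wild-type control mice, and miR-877-3p had 0.12 on the interaction.

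The number of all miRNAs called in TG mice was 99, and 302 with the RUVr factor, 220 with the spike-in factor, 124 with the block, and 292 and 43 in libraries with a TMM factor of at least 1 and below 1. In wild-type control mice it was 1, and 25 with DESeq2, 205 with the RUVr factor, 250 with the block, 5 with the spike-in factor, 2 in libraries with a factor of at least 1, and 0 without mouse 2, 3 or 4 and 4 without mouse 1 or 5 of the 3-month-old mice. At each age, 3 were called between genotypes with the RUVr factor. Of 41 spike-in oligos tested in TG mice, 11 passed the threshold between the ages, against 0 of 43 in wild-type control mice.

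Of 651 log2FC of products under an alternative, 614 kept their direction and side of the threshold, 10 crossed it and 27 changed sign. For age in wild-type control mice, miR-3102-3p.2-3p was at -0.0052 without the filter and -0.072 without mice 1 and 2, and miR-877-5p at -0.013 without mice 1 and 2 and -0.0056 in libraries with a factor of at least 1. At 3 months, miR-1981-5p was at -0.38 with the spike-in factor and -1.01 in libraries with a factor of at least 1, where miR-3102-3p was at 0.11. At 6 months, miR-1981-5p was at -0.024 with RLE size factors, -0.025 with DESeq2, -0.0052 with summed precursors, -0.11 with the spike-in factor and -0.32 below a factor of 1, and in libraries with a factor of at least 1 miR-877-5p was at -0.026 and miR-1224-5p at -0.0029. On the interaction, miR-1981-5p was at 0.067 with the RUVr factor and 0.25 with the spike-in factor. With single mice left out, log2FC ranged from -0.050 to 0.079 for miR-3102-3p.2-3p between ages in wild-type control mice, from -0.20 to 0.042 for miR-3102-3p and -0.29 to 0.036 for miR-877-3p at 3 months, and on the interaction from -0.23 to 0.10 for miR-877-3p and -0.13 to 0.27 for miR-702-3p. The cause of these differences was not tested. Depth limits miR-702-3p and miR-3102-5p, which lie near the floor of 3 counts.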
